A study of Mus musculus with 9 samples.

Results

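The tumour suppressor p53 and 9 of the genes that it switches on were followed in sorted stem and progenitor cells of mouse bone marrow. The genes were taken by symbol: Trp53, which encodes p53, and Cdkn1a, Mdm2, Ccng1, Phlda3, Trp53inp1, Zmat3, Sesn1, Bax and Eda2r. All 10 symbols were found among the 38215 genes of the count table, and all 10 were among the 14944 genes that passed the filter on low counts. The cells were Lineage-, Sca1+ and Kit+ (LSK), the marrow fraction that contains the blood stem cells, sorted for GFP together with mCherry at the terminal time point. Every mouse was C57BL/6J, had received tamoxifen and carried Jak2V617F, the activating kinase mutation of myeloproliferative neoplasms. The EV group had 5 libraries, mice 1 to 5, with Jak2V617F as the only genotype given; the labels do not spell out EV. The sgZrsr2 group had 4 libraries, mice 1, 2, 3 and 5, whose genotype adds sgZrsr2 and which the series describes as having lost Zrsr2, a minor spliceosome factor. Ages, the driver of the Jak2 allele, the guide sequence and the presence of Cas9 are not given in the sources used here. A group with normal Jak2 was not analysed here, so both groups share whatever that mutation does to these genes.

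p53 is a transcription factor that is kept scarce in unstressed cells by the ubiquitin ligase Mdm2 and is stabilised after DNA breaks and other stress. Its activity is controlled mainly at the level of the protein, so the RNA of its targets is read more often than the RNA of Trp53 itself. In haematopoietic stem cells p53 is known for restraining cell cycle entry and for removing cells with damaged DNA. The comparison of sgZrsr2 with EV asked whether the target genes were higher in the cells with the guide, since DNA cutting and disturbed splicing are both known triggers of p53.

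p53 binds DNA at pairs of a decamer, and the stretches near gene starts that resemble such a pair are shown for the genes that carry them. Of the 10 genes, 8 were found in the RefSeq promoter table (GRCm38.p6, 250 bases before to 50 after each start), all but Trp53inp1 and Zmat3, with 10 promoters. The consensus p53 decamer, which reads the same on both strands, was found in 6 of these 10 promoters and in 8.36% of all 32851 promoters. A pair of decamers with at most 3 mismatches and a gap of at most 13 bases was found in 5 of the 10 and in 15.6% of all. The pairs are printed 5′ to 3′ on the strand of the gene, with the decamers in capitals and the gap in lower case.
Cdkn1a: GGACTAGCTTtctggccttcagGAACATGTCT
Ccng1: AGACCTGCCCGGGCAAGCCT
Bax: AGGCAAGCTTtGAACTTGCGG
Sesn1: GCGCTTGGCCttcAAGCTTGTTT
Trp53: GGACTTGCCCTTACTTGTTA
The pair of Cdkn1a had 0 mismatches and began 73 bases before 1 of its 2 starts. The promoter of its other start (chr17:29093519-29093818) held no pair and no decamer. That of Ccng1 had 1 mismatch and began 195 bases before. Sesn1 also held a pair in 1 of its 2 promoters. Those of Bax, Sesn1 and Trp53 had 2, 2 and 3. At most 1 pair is marked per promoter, and others can lie beside it. In Cdkn1a the marked decamer GAACATGTCT is followed without a gap by tgacatgttc, which has 1 mismatch. These 2 also form a pair, left in part in lower case here. The whole windows that hold the pairs of Cdkn1a (chr17:29090729-29091028, plus strand) and Ccng1 (chr11:40755237-40755536, minus strand) are given below. They were chosen because the RNA levels of these genes lay at opposite ends of the range in EV mouse 3.
Cdkn1a window: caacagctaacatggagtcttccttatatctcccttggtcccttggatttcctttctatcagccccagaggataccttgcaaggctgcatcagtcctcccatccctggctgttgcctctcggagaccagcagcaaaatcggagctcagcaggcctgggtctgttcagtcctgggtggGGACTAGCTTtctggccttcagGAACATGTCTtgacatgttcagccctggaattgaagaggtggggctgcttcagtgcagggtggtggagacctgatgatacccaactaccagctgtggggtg
Ccng1 window: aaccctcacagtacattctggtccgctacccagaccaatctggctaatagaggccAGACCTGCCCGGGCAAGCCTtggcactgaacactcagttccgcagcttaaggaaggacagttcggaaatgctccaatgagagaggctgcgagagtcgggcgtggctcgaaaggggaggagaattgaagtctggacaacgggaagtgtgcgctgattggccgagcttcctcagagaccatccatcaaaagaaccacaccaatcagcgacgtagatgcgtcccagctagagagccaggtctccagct
These matches describe letters and were not tested for binding.

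The libraries held 23238264 to 45585531 counts. Levels are given as CPM, counts scaled to a common depth, after TMM scaling, which corrects for library size and composition; EV mouse 3 had the lowest TMM factor, 0.894, and the others lay between 0.967 and 1.07. Zrsr2 itself was at 50.6 to 62.2 CPM in the EV libraries and at 31.7 to 44.4 CPM in the sgZrsr2 libraries, a mean of 72.8% of EV (log2 fold change -0.46, SE 0.12; edgeR adjusted p = 0.714). The titles number the libraries m1 to m5, read here as mice; nothing else says that they came from separate animals, so p-values measure only the spread between these libraries, which may be technical. In sorted bulk cells, fewer cells of a type and less RNA per cell cannot be told apart.

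p53 and its targets did not move in one direction with sgZrsr2. Of the 10 genes, 5 had a positive and 5 a negative log2 fold change, with a median of 0.01 beside -0.01 over all 14944 genes tested, and the same split was found with RLE factors and with library totals. The edgeR quasi-likelihood test, adjusted by Benjamini and Hochberg's method, put none of them past 0.05, and no other gene of the table either (0%). At an unadjusted p under 0.05 there was 1 of the 10, Trp53inp1, which was higher; among all genes 6.85% passed this mark, 3.87% higher and 2.98% lower with sgZrsr2. The groups overlapped in CPM for each of the 10 genes, and 3.06% of all genes had groups that did not overlap. The DESeq2 Wald test called 16 genes and limma-voom 0 at the adjusted threshold, with none of the 10 among them. EV mouse 5 and sgZrsr2 mice 3 and 5 are high in most of the listed erythroid and megakaryocyte genes, though not in the globin gene Hbb-bt. Without these libraries the count at an unadjusted p under 0.05 was again 1 of the 10, but the gene was Phlda3, beside 11% of all genes.

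**Figure D1:**
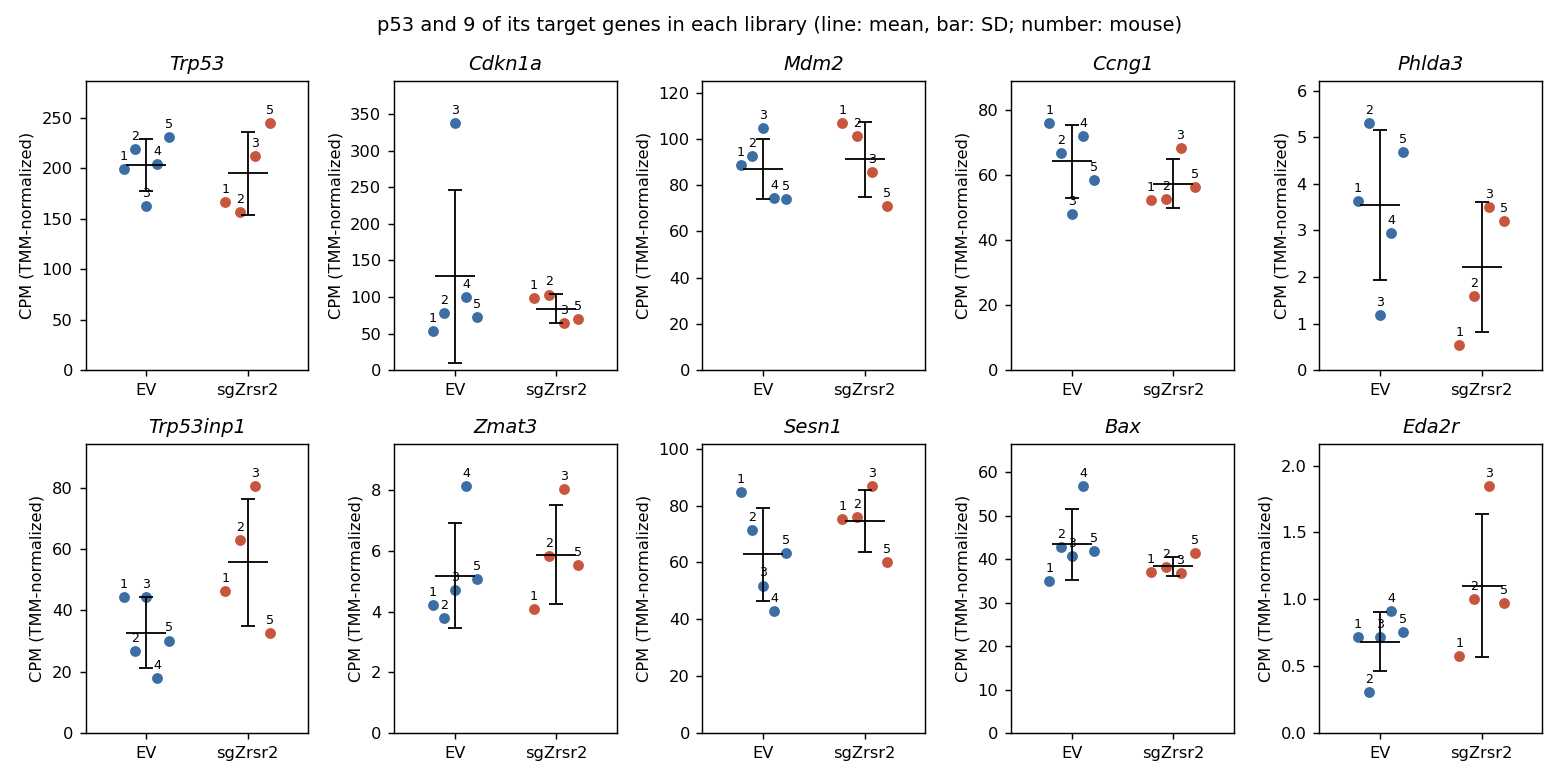
TMM-normalized CPM (y axis, from 0) of Trp53 and 9 of its targets in the 5 EV and 4 sgZrsr2 libraries; points are libraries with the mouse number, the horizontal line is the mean and the bar the SD. The groups overlap in every panel, and EV mouse 3 stands at 337.6 CPM for Cdkn1a while no other library exceeds 103.4 CPM.

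Trp53 (ENSMUSG00000059552; GRCm38 chromosome 11, 69580359 to 69591873, plus strand), the gene of p53, had levels of 199, 219, 163, 204 and 232 CPM in EV mice 1 to 5. In sgZrsr2 mice 1, 2, 3 and 5 they were 167, 157, 212 and 245 CPM. The low values belonged to both groups, namely EV mouse 3 and sgZrsr2 mice 1 and 2, and the highest and the lowest library were both sgZrsr2. The means were 203 ± 25.9 (SD, n = 5) and 195 ± 40.9 CPM (SD, n = 4), with a log2 fold change of -0.06 (SE 0.15, 95% interval -0.40 to 0.28; edgeR adjusted p = 0.926). A two-sided exact permutation test on CPM gave p = 0.73.

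Mdm2 (ENSMUSG00000020184; chromosome 10, 117688888 to 117710758, minus strand), the ligase that marks p53 for destruction and is itself induced by it, was at 88.9, 92.5, 105, 74.4 and 74.0 CPM in the EV libraries. The sgZrsr2 libraries were at 107, 101, 85.9 and 70.8 CPM. The 3 highest values were those of sgZrsr2 mice 1 and 2 and EV mouse 3, the libraries with the least Trp53. The log2 fold change was 0.07 (SE 0.15, 95% interval -0.26 to 0.40; edgeR adjusted p = 0.911). Ccng1 (ENSMUSG00000020326; chromosome 11, 40748552 to 40755311, minus strand) encodes cyclin G1, a target that feeds back on p53 through Mdm2. It was at 75.8, 66.6, 47.9, 72.0 and 58.4 CPM with EV and at 52.2, 52.5, 68.3 and 56.1 CPM with sgZrsr2. Here the same 3 libraries were the lowest, again from both groups, and the log2 fold change was -0.16 (SE 0.15; edgeR adjusted p = 0.785).

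Cdkn1a (ENSMUSG00000023067; chromosome 17, 29090979 to 29100722, plus strand) encodes p21, the inhibitor of cyclin-dependent kinases through which p53 stops the cell cycle. Its levels were 53.5, 78.5, 337.6, 99.6 and 72.6 CPM in EV mice 1 to 5 and 98.9, 103, 64.2 and 70.5 CPM in sgZrsr2 mice 1, 2, 3 and 5. A single control library, EV mouse 3, stood above all the others, with 10828 counts; the remaining 8 libraries mixed without regard to group. By library totals alone that library was at 301.5 CPM, and the other 8 at 54.48 to 100 CPM. The log2 fold change of -0.61 (SE 0.49; edgeR adjusted p = 0.759) rested on it: without EV mouse 3 the value was 0.14 (unadjusted p = 0.534). A two-sided exact permutation test on CPM gave p = 0.794.

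Phlda3 (ENSMUSG00000041801; chromosome 1, 135766119 to 135769136, plus strand), a p53 target that restrains the kinase Akt, was low. It was at 3.63, 5.31, 1.19, 2.95 and 4.68 CPM with EV and at 0.534, 1.599, 3.50 and 3.20 CPM with sgZrsr2, on 12 to 240 counts per library. The lowest 3 libraries were sgZrsr2 mouse 1, EV mouse 3 and sgZrsr2 mouse 2, and the groups overlapped. Its log2 fold change was -0.67 (SE 0.54; edgeR adjusted p = 0.759) with all libraries. It was -0.36 (unadjusted p = 0.461) without sgZrsr2 mouse 1 and -1.59 (unadjusted p = 0.0492) without EV mouse 5 and sgZrsr2 mice 3 and 5. Sesn1 (ENSMUSG00000038332; chromosome 10, 41810574 to 41908424, plus strand), a sestrin that lowers mTORC1 signalling, was at 84.7, 71.4, 51.9, 42.8 and 63.4 CPM with EV. With sgZrsr2 it was at 75.2, 76.1, 87.0 and 60.2 CPM, inside or just above the EV range. The log2 fold change was 0.25 (SE 0.19, 95% interval -0.17 to 0.67; edgeR adjusted p = 0.755).

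Bax (ENSMUSG00000003873; chromosome 7, 45461695 to 45466898, minus strand), the pore-forming protein of mitochondrial cell death, was the steadiest gene with sgZrsr2, at 37.1, 38.1, 36.8 and 41.4 CPM. The EV libraries were at 34.9, 42.8, 40.7, 56.9 and 41.9 CPM and enclosed all of these. The log2 fold change was -0.18 (SE 0.14, 95% interval -0.49 to 0.13; edgeR adjusted p = 0.757), and -0.06 without EV mouse 4. Eda2r (ENSMUSG00000034457; chromosome X, 97333840 to 97377216, minus strand), a member of the TNF receptor family, was low, at 13 to 76 counts per library. Its levels were 0.720, 0.309, 0.717, 0.910 and 0.756 CPM with EV and 0.579, 0.9997, 1.85 and 0.974 CPM with sgZrsr2. Of the 4 sgZrsr2 libraries, 3 lay above all EV libraries and mouse 1 lay among them; the log2 fold change was 0.70 (SE 0.43; edgeR adjusted p = 0.728), 0.32 without sgZrsr2 mouse 3 and 0.26 without EV mouse 5 and sgZrsr2 mice 3 and 5.

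Trp53inp1 (ENSMUSG00000028211; chromosome 4, 11156431 to 11174379, plus strand) encodes a nuclear protein that promotes p53-dependent death and autophagy. Its levels were 44.3, 26.8, 44.3, 17.9 and 30.1 CPM in EV mice 1 to 5. In sgZrsr2 mice 1, 2, 3 and 5 they were 46.3, 62.9, 80.6 and 32.6 CPM. The highest 3 libraries were sgZrsr2, while sgZrsr2 mouse 5 lay inside the EV range. Mean levels were 32.7 ± 11.5 (SD, n = 5) and 55.6 ± 20.8 CPM (SD, n = 4). The log2 fold change was 0.77 (SE 0.30, 95% interval 0.10 to 1.44), with an edgeR p of 0.0289 before and 0.714 after adjustment over 14944 genes, and a two-sided exact permutation p of 0.0635. It stayed positive, at 0.53 to 0.95, in all 18 alternatives, of which 10 gave an unadjusted p under 0.05. Leaving out any of EV mice 2, 4 and 5 or sgZrsr2 mice 2 and 3 took that p above 0.05. Zmat3 (ENSMUSG00000027663; chromosome 3, 32334796 to 32365678, minus strand), an RNA-binding zinc finger protein downstream of p53, was at 4.20, 3.80, 4.71, 8.15 and 5.06 CPM with EV. It was at 4.10, 5.84, 8.03 and 5.54 CPM with sgZrsr2, and 1 library of each group stood near 8 CPM. Its log2 fold change was 0.18 (SE 0.28; edgeR adjusted p = 0.877).

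Per kilobase of annotated exon, which allows genes to be set side by side, the order of the median levels was nearly the same in both groups. In EV it ran from Trp53 at 50.4 CPM per kilobase through Bax (26.6), Cdkn1a (22.1), Ccng1 (18.9), Mdm2 (17.5) and Sesn1 (15.9) to Trp53inp1 (4.65), Phlda3 (2.33), Zmat3 (0.412) and Eda2r (0.122). With sgZrsr2 it was Trp53 (46.8), Bax (23.9), Cdkn1a (23.8), Sesn1 (19.0), Mdm2 (18.4), Ccng1 (15.5), Trp53inp1 (8.43), Phlda3 (1.54), Zmat3 (0.497) and Eda2r (0.168). In both groups the range of Bax lay above those of Ccng1, Mdm2 and Sesn1 and overlapped that of Cdkn1a, and the ranges of Cdkn1a, Ccng1, Mdm2 and Sesn1 overlapped one another, so no order among these 4 is read. Trp53 lay above Bax in every library of its group, and so did each of Zmat3 and Phlda3 above Eda2r.

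**Figure D2:**
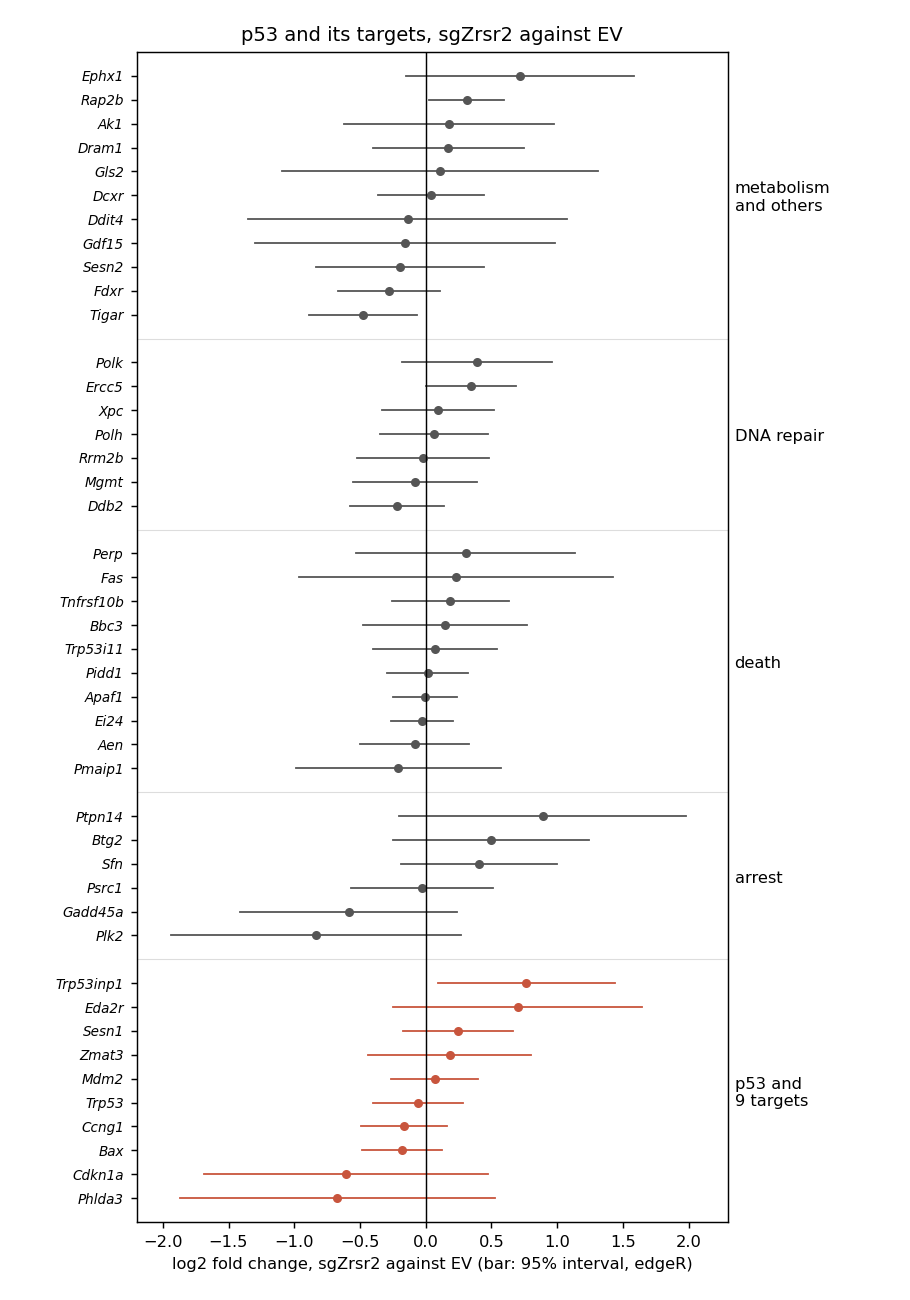
Log2 fold change of sgZrsr2 against EV (x axis) with its 95% interval from edgeR for Trp53, 9 targets and the tested genes of 4 further target lists (y axis). The intervals of Trp53inp1 and Rap2b lie above 0 and that of Tigar below, none of which passed adjustment over all genes.

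A wider set of 37 targets, grouped by what their products do, was also mixed in direction. Of these, 34 were tested, 19 with a positive and 15 with a negative log2 fold change, and 2 had an unadjusted p under 0.05 (5.88%, beside 6.85% of all genes); the median was 0.05. Of 6 tested arrest genes 0 reached that mark. Plk2, a stress-induced kinase, had a log2 fold change of -0.83 (SE 0.50; edgeR adjusted p = 0.728), and of -0.12 without EV mouse 3. Ptpn14, a phosphatase, had 0.89 (SE 0.49; edgeR adjusted p = 0.714), and 0.05 without EV mouse 5 and sgZrsr2 mice 3 and 5. Of 10 death genes 0 reached it, the smallest p belonging to the death receptor Tnfrsf10b (5.66 ± 1.01 against 6.46 ± 0.841 CPM) and to Perp (3.004 ± 0.850 against 3.72 ± 1.97 CPM). Of 7 DNA repair genes 0 reached it; the excision repair nuclease Ercc5 was at 18.4 ± 1.21 with EV and 23.4 ± 4.82 CPM with sgZrsr2, and the polymerase Polk at 14.7 ± 4.88 and 19.3 ± 2.62 CPM.

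Among 11 tested genes of metabolism and other roles, 2 had an unadjusted p under 0.05 (18.2%, beside 6.85% of all genes), and 0 did without EV mouse 4 or without sgZrsr2 mouse 1. Tigar, which restrains glycolysis, had levels of 13.04, 15.4, 19.8, 19.4 and 13.5 CPM in EV mice 1 to 5. Those in sgZrsr2 mice 1, 2, 3 and 5 were 11.6, 13, 9.24 and 12.8 CPM. It was the 1 of the 34 further targets whose groups did not overlap, by a gap of 0.0485 CPM, beside 3.06% of all genes, and by library totals they overlapped (exact permutation test on TMM-scaled CPM, two-sided, p = 0.0159; with 5 and 4 libraries none can be smaller). Its log2 fold change was -0.48 (SE 0.19; edgeR adjusted p = 0.714). Rap2b, a small GTPase, was at 33.5 ± 4.24 and 41.6 ± 4.77 CPM (log2 fold change 0.31, SE 0.13; edgeR adjusted p = 0.714). Of the 18 alternatives, 10 gave Tigar and 8 gave Rap2b an unadjusted p under 0.05.

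A control library, EV mouse 3, stood at the top for some targets and at the bottom for others. In EV mouse 3, Cdkn1a was at 4.47 times the median of the other 8 libraries, Plk2 at 4.0, the mTORC1 inhibitor Ddit4 at 3.63, Gadd45a at 3.39, the BH3 protein Pmaip1 at 2.40, the cytokine Gdf15 at 2.33 and Sesn2 at 2.23 times, each above every other library. In the same library Ccng1 was at 0.766, the repair gene Xpc at 0.615, Psrc1 at 0.455, Polk at 0.375 and Gls2 at 0.177 times that median, each below every other library. Trp53 was at 0.784 times and Mdm2 at 1.2 times, both inside the range of the others. Over the 43 tested targets, EV mouse 3 was the highest library for 10 and the lowest for 10 (23.3% each). Over all genes tested it was the highest for 20.2% and the lowest for 22%, shares near those of the targets. These genes were singled out after their values were seen, except Cdkn1a, Ccng1, Plk2 and Polk. The summed markers of megakaryocytes (207 CPM), erythroid cells (17.9 CPM), neutrophils and monocytes (3075 CPM) and lymphoid cells (172 CPM) lay there within the ranges of EV given below. Single genes held most of these sums, so they say little about the other markers. They were Itga2b (149 CPM), Hbb-bt (14.3 CPM), Mpo (2692 CPM) and Dntt (109 CPM). The neutrophil granule genes Ngp, Ltf and Camp were at 17.2, 6.17 and 3.09 CPM, above the other EV libraries except mouse 5. S100a9 of the same list (13.7 CPM) had the same place. S100a8 (9.85 CPM) lay below EV mice 4 and 5, and Elane, Mpo and Csf1r lay within the range of the other EV libraries. The part of these genes in the levels of the targets was not tested.

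**Figure D3:**
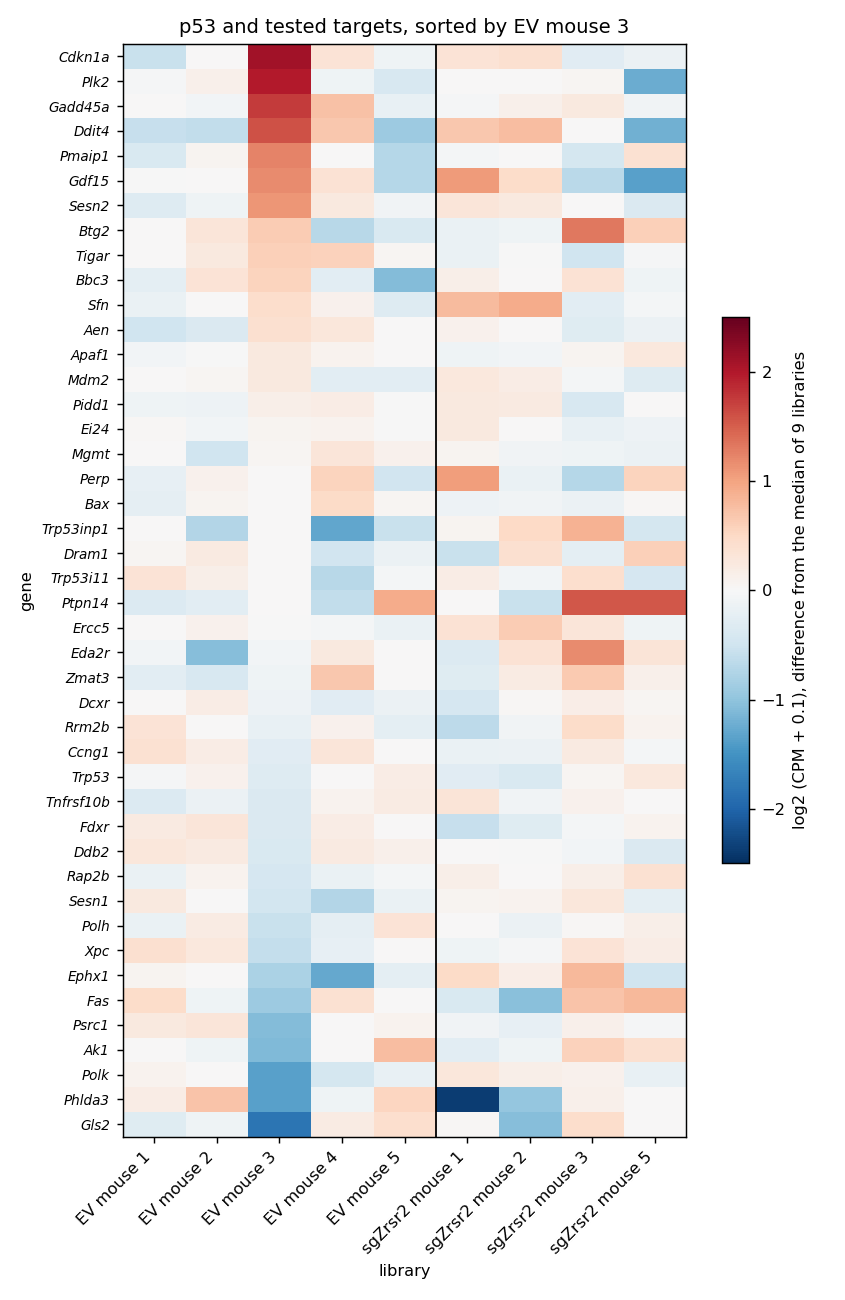
Trp53 and its 43 tested targets (rows) in the 9 libraries (columns), coloured by log2 of CPM + 0.1 minus the median of the 9 libraries, with rows sorted by EV mouse 3 and a line between the groups. EV mouse 3 runs from the strongest red (Cdkn1a, Plk2) to strong blue (Phlda3, Gls2), at 4.47 and 0.177 times the median of the other 8 libraries for Cdkn1a and Gls2.

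Trp53, Ccng1 and Phlda3 had their 3 lowest values in EV mouse 3 and sgZrsr2 mice 1 and 2, and Mdm2 had its 3 highest there. These libraries, singled out after Trp53 was seen, include the 2 with the fewest counts. They were the 3 lowest for 10.8% and the 3 highest for 9.05% of all genes tested, and for 5 and 5 of the 43 targets (11.6% each), near the shares of all genes. Of the 19 tested regulators of p53, 3 had their 3 lowest values there (15.8%; the kinases Atm, Chek2 and Prkdc) and 5 their 3 highest (26.3%; Ppm1d, Usp7, Kat5, Crebbp and Bcl6), while Atr and Chek1 had neither. Atm was at 32.6, 36.2 and 32.7 CPM there and at 53.1 to 79.6 CPM in the other 6. Its part in the levels of the targets was not tested.

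Upstream of p53, 20 regulators were listed and 19 tested, 10 with a positive and 9 with a negative log2 fold change (median 0.03). Of the 19, 1 had an unadjusted p under 0.05 (5.26%, beside 6.85% of all genes). Chek1, a kinase of the replication checkpoint, was at 48.0, 50.1, 44.4, 59.2 and 46.9 CPM with EV and at 44.6, 45.9, 26.4 and 36.8 CPM with sgZrsr2. The groups overlapped; the log2 fold change was -0.37 (SE 0.17; edgeR adjusted p = 0.714), and -0.15 without EV mouse 5 and sgZrsr2 mice 3 and 5. Hipk2, a kinase that phosphorylates p53, was at 55.0 ± 12.5 and 70.0 ± 5.86 CPM (log2 fold change 0.35, SE 0.16; edgeR adjusted p = 0.714). Cdkn2a, whose Arf product blocks Mdm2, did not pass the filter. Of the related factors, Trp63 had 0 counts in all 9 libraries, where 3 counts would be 0.0658 to 0.129 CPM, and Trp73 reached 0.249 CPM in 1 library and was at 0 in 5.

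Cell cycle genes that p21 and the DREAM complex are known to lower were also read. Of 20 tested, 15 had a negative and 5 a positive log2 fold change, with a median of -0.07 beside -0.01 for all genes. In that fit 1 had an unadjusted p under 0.05 (5%, beside 6.85% of all genes). The split depended on single libraries. Without EV mouse 2 it was 9 and 11 with a median of 0.02. Without EV mouse 3 it was 19 and 1 with a median of -0.17. There 4 genes had an unadjusted p under 0.05, beside 7.44% of all genes. Under limma-voom it was 17 and 3 with a median of -0.21 and 6 such genes, beside 17.1% of all genes. Birc5, the mitotic protein survivin, was at 66.66, 79.2, 69.0, 81.2 and 70.2 CPM with EV and 66.65, 62.6, 54.7 and 64.6 CPM with sgZrsr2 (log2 fold change -0.24, SE 0.10; edgeR adjusted p = 0.714). It was the 1 gene of the 20 whose groups did not overlap, by a gap of 0.0128 CPM, beside 3.06% of all genes, and by library totals they overlapped. The mitotic checkpoint kinase Bub1 was at 54.4 ± 5.89 and 45.7 ± 7.97 CPM.

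Markers of the sorted cells and of other cells were read beside these results. All 10 LSK markers were tested; Kit was at 247 to 632 CPM and Ly6a, which encodes Sca1, at 14.8 to 49.3 CPM over the 9 libraries. Of the 10, 7 had a positive log2 fold change, with a summed level of 1468 to 2030 CPM in EV and 1651 to 2074 CPM with sgZrsr2. Mecom had the smallest p (28.7 ± 5.18 against 39.5 ± 9.90 CPM), followed by Flt3 (412 ± 113 against 317 ± 61.6 CPM). In EV and then sgZrsr2, the 8 megakaryocyte markers summed to 160 to 345 and 256 to 545 CPM. The 8 erythroid markers summed to 17.7 to 66.1 and 48.3 to 133 CPM. For the 8 neutrophil and monocyte markers it was 2258 to 3131 and 2817 to 4076 CPM. For the 8 lymphoid markers it was 148 to 381 and 117 to 296 CPM. The largest parts came from Itga2b, from Hbb-bt or Car1, from Mpo, and from Dntt or Nkg7. In sgZrsr2 mice 1 and 2, Hbb-bt was at 46.2 and 42.3 CPM of erythroid sums of 51.2 and 48.3 CPM. Car1, Klf1 and Epor were there at most at 0.160, 1.52 and 2.27 CPM. Hbb-bs, at 1.69 and 2.04 CPM, lay above the EV libraries except mouse 5. All 8 megakaryocyte markers and all 7 tested erythroid markers had a positive log2 fold change (medians 0.95 and 1.85), as did 7 of 8 neutrophil and monocyte markers (0.18) and 1 of 6 tested lymphoid markers (-0.62). These directions rested in part on single libraries. Without sgZrsr2 mouse 3 the neutrophil and monocyte list had 2 higher and 6 lower (median -1.35) and the erythroid median was 0.75; the neutrophil and monocyte list also had 3 higher and 5 lower without EV mouse 2, and the lymphoid list 4 higher and 2 lower without EV mouse 1 (median 0.17). Without EV mouse 5 and sgZrsr2 mice 3 and 5, 5 of 8 megakaryocyte markers were higher (median 0.17) and 4 of 5 tested erythroid markers (median 0.41). At 0 were the T-cell gene Cd3e in 8 of the 9 libraries and its partner Cd3g in 5. The smallest p-values in these lists belonged to Gp1ba (5.51 ± 1.52 against 8.94 ± 3.32 CPM) and Itga2b (167 ± 64.6 against 245 ± 51.0 CPM), to Hbb-bs (1.72 ± 2.42 against 6.27 ± 7.52 CPM) and its near-copy Hbb-bt (14.7 ± 4.58 against 27.4 ± 20 CPM), to Elane (198 ± 40.4 against 263 ± 41.9 CPM) and Mpo (2523 ± 282 against 2853 ± 594 CPM), and to Dntt (186 ± 88.6 against 101 ± 69.1 CPM) and Nkg7 (57.9 ± 12.5 against 69.4 ± 15.8 CPM). None of these passed adjustment (edgeR adjusted p from 0.714 to 0.772). The part of these cells in the levels of the p53 targets was not tested.

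The genes whose log2 CPM over the 9 libraries was most like that of Trp53 were Steap3 (Pearson r = 0.987), Add3 (0.978) and Ppm1f (0.97), all highest in sgZrsr2 mouse 5. Most like Cdkn1a were Usp36 (0.988), Grk6 (0.985) and Erf (0.97), each highest in EV mouse 3: Usp36 was at 189 CPM there and at most at 110 CPM elsewhere. These values describe 9 libraries that share their depth and scaling and carry no test.

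**Figure D4:**
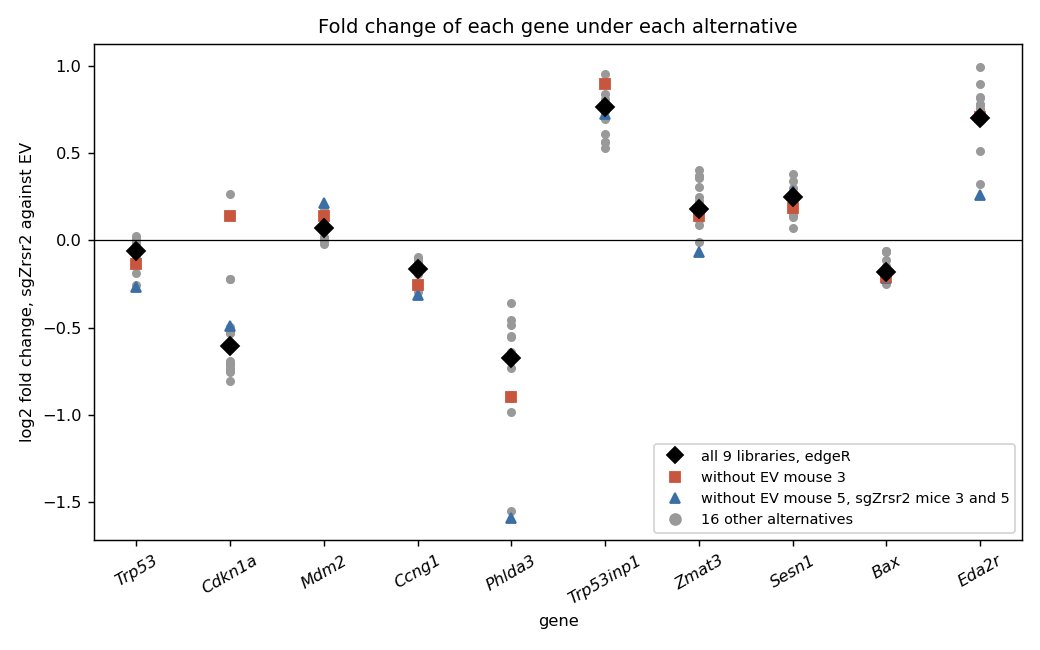
Log2 fold change of sgZrsr2 against EV (y axis) of Trp53 and 9 targets (x axis) with all 9 libraries (black diamonds), without EV mouse 3 (red squares), without EV mouse 5 and sgZrsr2 mice 3 and 5 (blue triangles) and under 16 other alternatives (grey points). Cdkn1a lies at -0.61 with all libraries and at 0.14 without EV mouse 3, and Trp53inp1 stays above 0 under each.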

How the data were processed

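RNA was measured in 9 libraries of LSK cells. The authors deposited a gene table of RSEM expected counts, with no normalization; cutadapt 1.11, RSEM 1.2.30 and GRCm38 are named in the submitters' processing notes. The aligner, annotation and strandedness are not given in the sources used here. Expected counts need not be whole where genes share reads; those of the 10 genes were exactly whole as deposited (tolerance 0) in 9 of 9 libraries, and no listed gene overlaps them.

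Counts were rounded, filtered with filterByExpr (minimum count 10, minimum total 15), scaled with TMM and compared with edgeR 4.0.16 (glmQLFit, glmQLFTest; R 4.3.3), adjusted over 14944 genes, with SE as the fold change over the root of F. Exact permutation tests on CPM were two-sided; they were not adjusted over the 10 genes alone, and adjusted over all genes tested they gave 0.637 or more. Alternatives changed the scaling, the filter and the test (DESeq2 1.42.0, limma 3.58.1), used the mouse number as a block, summed sgZrsr2 mice 1 and 2, described as most alike in earlier results, and left out libraries. Exon lengths and 5 current symbols absent from the table came from GENCODE M21, so that Tigar, Pidd1, Cop1, Hbb-bs and Hbb-bt were matched by identifier. The lymphoid marker Ebf1, whose symbol occurs more than once among the deposited genes, was matched in the same way.

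The 10 genes, the lists and the tests were chosen with earlier results of these data known. Named beside the 10 were Zrsr2, the 2 smallest p of each list, genes of the lists whose groups did not overlap and the 3 nearest patterns of Trp53 and Cdkn1a.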

Additional observations from a re-analysis of the deposited data

Results flagged for a closer look

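Over 33 genes and both groups, 66 sets of values were examined for a library far from the rest of its group, and 9 stood out. At 1 in 20, independent sets would give about 3.3. The sets share libraries and many genes were named for a small p, so they are not independent. The same count over all genes was not made, so the 9 are not read as an excess. Of p53 and its targets, Cdkn1a was at 338 CPM in EV mouse 3, where the other EV libraries ran from 53.5 to 99.6 CPM. Zmat3 was at 8.15 CPM in EV mouse 4, beside 3.80 to 5.06 CPM. Plk2 was at 76.9 CPM in EV mouse 3, beside 14.7 to 21.1 CPM, and at 8.21 CPM in sgZrsr2 mouse 5, beside 19.5 to 20.1 CPM. Ptpn14 was at 4.80 CPM in EV mouse 5, beside 1.58 to 2.46 CPM. The targeted gene Zrsr2 was at 62.2 CPM in EV mouse 3, beside 50.6 to 51.9 CPM. Among markers of other cells, Hbb-bs was at 6.05 CPM in EV mouse 5 (others 0.422 to 0.806 CPM) and at 17.5 CPM in sgZrsr2 mouse 3 (others 1.69 to 3.90 CPM), and Elane at 125.8 CPM in EV mouse 4 (others 209 to 223 CPM). The causes were not tested.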

How the results depend on the processing

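In all 18 alternatives (9 changes of processing and 9 fits that each left out a library) none of the 10 genes passed the adjusted threshold. The number of all genes past it was 16 in the DESeq2 Wald test and 1 with sgZrsr2 mice 1 and 2 summed, and 0 to 0 over the fits without a library. At an unadjusted p under 0.05 there were 3 of the 10 genes with limma-voom and quality weights (Ccng1, Phlda3 and Trp53inp1), beside 17.1% of all genes. There were 0 with the mouse number as a replicate block on 8 or on 9 libraries (2.25% and 2.28% of all genes). Without a library there were from 0 to 1, beside 4.12% to 8.73% of all genes. The count was 0 without EV mice 2, 4 or 5 and without sgZrsr2 mice 2 or 3. Same-numbered libraries had correlated deviations of -0.404 to 0.369, the highest for mouse 5. Libraries with different numbers had -0.407 to 0.523, which encloses that range, so the numbers were not taken as a pairing. Over all genes the unadjusted count of 1024 became 2551 with limma-voom, 333 and 341 with the block, 1692 without EV mouse 5 and sgZrsr2 mice 3 and 5, and 609 to 1292 without a library. The median log2 fold change of the 10 genes ran from -0.14 to 0.138. Cdkn1a changed sign to 0.267 with limma-voom and to 0.138 without EV mouse 3 (range -0.804 to 0.138 without a library). The quality weights of limma-voom were lowest for EV mouse 3 (0.294), so these 2 alternatives are not independent. Trp53 changed sign to 0.0156 and Mdm2 to -0.00358 with sgZrsr2 mice 1 and 2 summed, and without a library they ran from -0.189 to 0.0265 and from -0.0217 to 0.173. Zmat3 was at -0.0646 without EV mouse 5 and sgZrsr2 mice 3 and 5, and ran from -0.00778 to 0.402 without a library; Perp ran from -0.0602 to 0.539. The cause was not tested. Eda2r and Phlda3, with as few as 13 and 12 counts in a library, are the least precise.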
